A study of Mus musculus with 4 samples.

Results

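Ly6Clo monocytes are the nonclassical monocytes of mouse blood, cells that patrol the vessel wall, and they arise largely by conversion from the classical Ly6Chi monocytes. RBP-J is the DNA-binding protein of canonical Notch signaling. When a ligand on a neighbouring cell engages a Notch receptor, ADAM10 and then the gamma-secretase complex cut the receptor, the released intracellular domain joins RBP-J and a Mastermind coactivator at target genes such as *Hes1*, and without that domain RBP-J can hold the same genes down with corepressors. The question addressed here was which genes differed in Ly6Clo monocytes when *Rbpj* was deleted.

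RNA-seq was done on blood monocytes sorted by flow cytometry from mice with 2 genotypes. Control mice were Rbpj+/+ Lyz2cre/cre, named WT in the sample titles, and RBP-J-deficient mice were Rbpjfl/fl Lyz2cre/cre. Both genotypes therefore carried Cre in the lysozyme M gene *Lyz2*, whose promoter is active across myeloid cells and not in Ly6Clo monocytes alone, and the labels name no treatment. Mice were 7 to 12 weeks old and were matched for age and gender. Ly6Clo and Ly6Chi monocytes of each genotype were sequenced as 1 library each, 4 libraries in all, and the sources used here do not give the number of mice behind a library. Expression is in FPKM, a measure of reads that is corrected for the length of the transcript and the size of the library. The depth of the libraries is unknown.

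The comparison was between the RBP-J-deficient and the control Ly6Clo library. Genes were taken where the mean FPKM of these 2 libraries was 10 or more, which 4778 of the 23997 rows of the deposited table met (19.9%), and differences are given as log2 of the quotient of (FPKM + 1), deficient divided by control (the log2 ratio), on which 1 is a 2-fold difference. This ratio understates differences of genes with low values. With 1 library on each side no difference has a replicate check in these data, no test was made, and every value below describes these libraries. The paper measured CCR2, CD11c and Nr4a1 in individual mice by other methods. By flow cytometry and qPCR, it reports higher CCR2 and lower CD11c in RBP-J-deficient than in control Ly6Clo monocytes. The FPKM values of *Ccr2* and of *Itgax*, which encodes CD11c, differed in these same directions. What the paper reports for Nr4a1 is given beside that gene. In sorted bulk RNA, fewer cells of a type and less RNA per cell cannot be told apart.

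The 250 bases upstream of a start site are shown for genes that recur below, as examples of where the RBP-J core motif TGGGAA was found on either strand. They are *Capg*, one of the highest genes, *Cox7c*, the highest respiratory chain subunit, *Slc35c2*, one of the lowest genes, and *Tfeb*, a lower transcription factor gene. Sequences are from RefSeq, build GRCm38.p6, 5′ to 3′ on the strand of the gene, with the core or its reverse complement TTCCCA in capitals.
*Capg*, chr6:72549397-72549646, plus strand: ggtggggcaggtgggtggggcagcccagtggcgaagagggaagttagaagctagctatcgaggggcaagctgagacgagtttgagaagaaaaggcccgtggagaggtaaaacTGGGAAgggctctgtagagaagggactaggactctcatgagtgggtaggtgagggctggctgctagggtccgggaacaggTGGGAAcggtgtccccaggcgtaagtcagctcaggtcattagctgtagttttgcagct
*Cox7c*, chr13:86046796-86047045, minus strand: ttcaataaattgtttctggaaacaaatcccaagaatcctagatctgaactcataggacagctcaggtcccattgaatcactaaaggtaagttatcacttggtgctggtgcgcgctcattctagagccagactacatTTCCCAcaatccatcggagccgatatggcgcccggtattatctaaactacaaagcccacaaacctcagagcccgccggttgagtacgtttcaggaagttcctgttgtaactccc
*Slc35c2*, chr2:165287788-165288037, minus strand: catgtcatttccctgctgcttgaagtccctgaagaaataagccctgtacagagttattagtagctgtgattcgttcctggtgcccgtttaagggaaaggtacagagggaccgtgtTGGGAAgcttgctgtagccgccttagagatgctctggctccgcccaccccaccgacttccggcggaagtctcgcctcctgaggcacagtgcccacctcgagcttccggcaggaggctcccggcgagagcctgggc
*Tfeb*, chr17:47736787-47737036, plus strand: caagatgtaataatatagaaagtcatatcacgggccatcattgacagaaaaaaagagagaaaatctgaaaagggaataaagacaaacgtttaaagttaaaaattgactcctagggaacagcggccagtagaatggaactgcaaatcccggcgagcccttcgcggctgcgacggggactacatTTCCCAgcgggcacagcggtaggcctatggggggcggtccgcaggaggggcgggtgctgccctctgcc

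The first base of the 2 motif copies lay 58 and 138 bases upstream of the *Capg* start, and that of the single copy 114 bases upstream of *Cox7c*, 135 upstream of *Slc35c2* and 68 upstream of *Tfeb*. These last genes have other start sites in the table: the other *Slc35c2* start has the same copy 84 bases upstream, and the other 2 *Tfeb* windows held none. Of all 32851 promoter windows of this length, 21.6% held the core. Of the 3856 genes compared that had a window, some with several, 23.1% had it in at least 1. Among genes at least 2-fold higher in RBP-J-deficient monocytes the share was 102 of 483 genes (21.1%), and among genes at least 2-fold lower it was 103 of 384 (26.8%). The windows for *Ccr2*, *Itgax*, *Nr4a1*, *Notch2* and *Junb* held no copy. Such a match is a run of letters and not a binding site. *Hes1*, *Spi1* and *Il27* had no entry.

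Among the 4778 genes, 597 were at least 2-fold higher (12.5%) and 487 at least 2-fold lower (10.2%) in RBP-J-deficient Ly6Clo monocytes. The lower genes reached larger ratios, with 85 at least 4-fold lower against 51 at least 4-fold higher. The median ratio was 0.23, with quartiles at -0.34 and 0.71. Of the 40 genes in the study's heat map, 31 were among those compared, and 581 higher and 472 lower genes lay beyond the heat map. At the edge of the 2-fold threshold, *Wrb* was just inside at 1.00022 and *D19Bwg1357e* just outside at 0.999726, while *A530064D06Rik* was just inside on the lower side at -1.00083 and *Plekhb2* just outside at -0.997226. At the edge of the expression filter, *Tex264* had a mean FPKM of 10.0005 and *Rnf121* 9.99453.

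**Figure D1:**
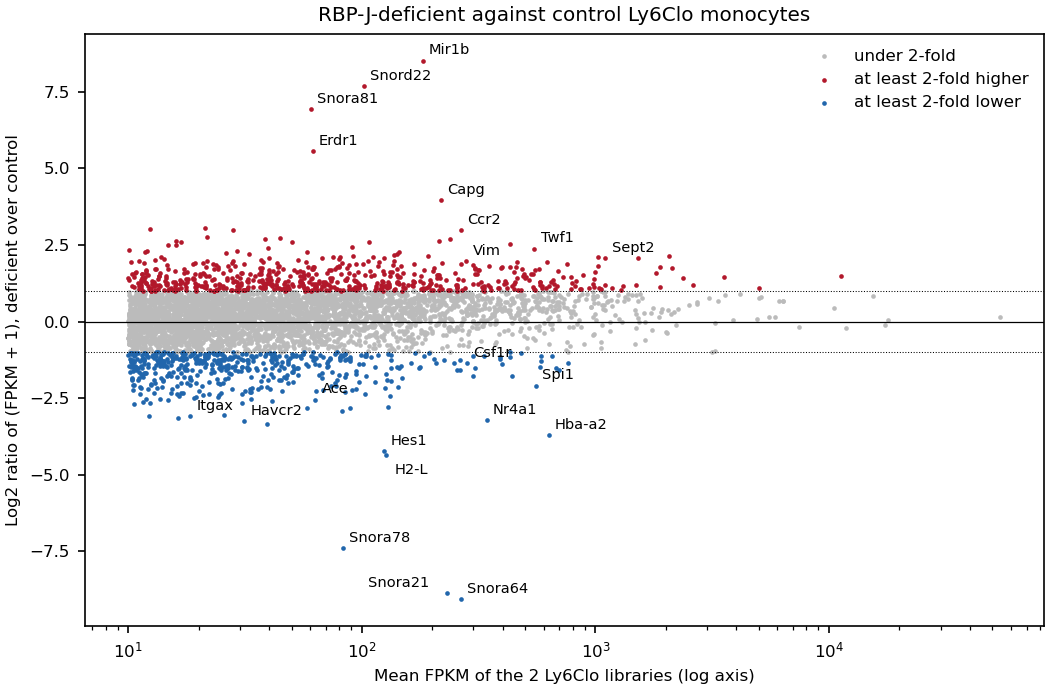
Log2 ratio between the deficient and the control Ly6Clo library against the mean FPKM of the 2 libraries on a log axis, each point 1 of the genes compared except *Actb*. Genes at least 2-fold higher (597) are red and genes at least 2-fold lower are blue, with the 2-fold thresholds dotted; the points beyond 6 in either direction are small RNA genes listed at 0 in 1 library, and the point at 5.55 is *Erdr1* of the heat map.

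The balance of higher and lower genes depended on the scale. The FPKM values summed to 690115 in the control and 885648 in the deficient library without *Actb*, and rescaling both to the same total (TPM) shifted the median ratio of the genes by -0.35. On that scale 272 genes were at least 2-fold higher (5.69%) and 794 lower (16.6%), so that the higher genes made up 25.5% of the calls instead of 55.1%. Centring the ratios on their median gave 358 higher and 659 lower genes, or 35.2% higher. Because TPM moves nearly all ratios down by a similar amount, it could not turn the direction of a gene past 2-fold, but list medians between 0 and 0.36 changed sign.

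The ratio also moved with base composition and transcript length. The median GC content of the longest transcript was 46.1% for the higher, 54.1% for the lower and 48.4% for all genes. Between the lowest and the highest of 5 equal bins of GC content, the share of higher genes went from 17.7% to 6.35% and that of lower genes from 1.48% to 24.97%. The same order was present in Ly6Chi monocytes, where the medians went from 0.20 to -0.07 against 0.52 to -0.27 in Ly6Clo monocytes. After the GC trend was subtracted, 414 genes were at least 2-fold higher (8.66%) and 508 lower (10.6%), among them 343 of the 597 and 400 of the 487. By length the relation was not in one direction: the shortest of 5 bins held 17.5% higher and 3.81% lower genes, the longest 15.4% and 8.90%, and the 3 between them 9.22% to 10.04% higher genes. The part of GC content and of length in the gene groups below was not tested, and the GC-subtracted count stands beside most of the groups.

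**Figure D2:**
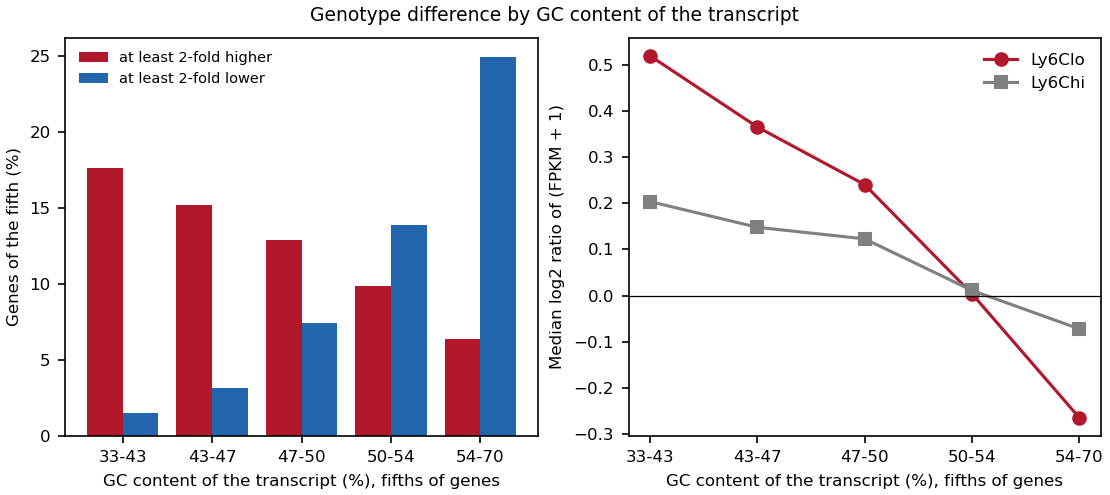
Left, share of genes (%) at least 2-fold higher (red) and lower (blue) in RBP-J-deficient Ly6Clo monocytes in each of 5 bins of transcript GC content. Right, the median log2 ratio of each bin in Ly6Clo (red circles) and Ly6Chi (grey squares) monocytes, which goes from 0.52 in the lowest to -0.27 in the highest bin in Ly6Clo monocytes.

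*Rbpj* itself (chr5:53555778-53657445, mm10 as are all positions of genes here) was at 8.30 in the control and 2.43 in the deficient Ly6Clo library. Its mean was under 10, so it is not among the genes compared, and its log2 ratio was -1.44. *Lyz2*, which carries the Cre insertion in both genotypes, had 52.0 and 133.9, and reads of it can be shared with its near-identical neighbour *Lyz1*, at 984.7 and 3286. *Itgax* (chr7:128129567-128150657), which encodes the integrin CD11c, had 33.7 in control and 3.10 in deficient monocytes. *Ccr2* (chr9:124102182-124109140), the receptor for the monocyte chemoattractant CCL2, had 59.2 and 473.7, the latter below the 711.6 of control Ly6Chi monocytes. *Hes1* (chr16:30065356-30067796), a Notch target and transcriptional repressor, had 238.2 and 11.7.

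Summed marker FPKM was higher in the cells of the label than in the other subset. Marker genes of Ly6Clo monocytes, led by *Gngt2*, *Apoc2* and *Pglyrp1*, summed to an FPKM of 15510 in control and 18315 in deficient Ly6Clo monocytes, against 3366 in control and 7334 in deficient Ly6Chi monocytes. Within that list, 8 of 24 genes were at least 2-fold lower and 1 was higher, with a median ratio of -0.36. Between the Ly6Chi libraries, 13 of the 24 were at least 2-fold higher in the deficient one and 1 was lower. Marker genes of Ly6Chi monocytes, led by *Plac8*, *Ifi27l2a* and *Mgst1*, summed to 4532 and 5790, against 18120 in control Ly6Chi monocytes. Of these, 4 of 11 were at least 2-fold higher and none lower. The higher ones were *Ccr2*, *Hp*, *Chil3* and *Ly6c2*, a gene of the sorting marker Ly6C. *Ly6c2* had 10.9 in control and 78.3 in deficient Ly6Clo monocytes (2.73), against 2013 in control Ly6Chi monocytes. Pan-monocyte genes, led by *Ctss*, *Cd68* and *Spi1*, summed to 8968 and 11484, with 1 of 9 higher and 2 lower, *Spi1* among the lower. The sums of the Ly6Chi and the pan-monocyte markers thus differed by nearly the same factor as the FPKM totals of the libraries.

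Hemoglobin RNA differed in opposite directions between genes. The 8 erythroid marker genes found summed to 1583 in control and 277.1 in deficient Ly6Clo monocytes. *Hba-a2* made up most of the control sum, 2 of the 3 erythroid genes compared were at least 2-fold lower, and the third, the beta-globin gene *Hbb-bs*, went from 11.1 to 54.6 (2.196), though its reads could be shared with the near-identical *Hbb-bt*. *Epor* and *Slc4a1* were listed at 0 in both. Neutrophil markers, led by *S100a8* and *S100a9*, summed to 270.9 and 177.9. B cell markers, led by *Cd37*, summed to 181.4 and 195.2, with *Pax5* listed at 0 in both. Of 14 B cell genes, 10 were lower in value and 3 higher. Of the 2 compared, *Cd79b* was at least 2-fold higher, at 41.9 and 100.2 (1.24). T cell markers summed to 1.12 and 1.02, NK cell markers to 2.88 and 1.76, and eosinophil, basophil and mast cell markers to 1.32 and 0.721. Platelet markers were alike in sum at 151.8 and 149.2, and dendritic cell markers summed to 214.8 and 249.9. By gene, 10 of 12 platelet markers were lower in value and 2 higher. Of 12 dendritic cell markers, 9 were lower in value and 3 higher.

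Beyond the heat map, the 12 highest ratios began with 3 small RNA genes. *Mir1b* was listed at 363.7, *Snord22* at 204.3 and *Snora81* at 120.9 in deficient Ly6Clo monocytes, and each was listed at 0 in control. *Snora64*, *Snora21* and *Snora78*, among the 12 lowest, were the reverse, at 529.3, 464.7 and 166.4 in control and listed at 0 in deficient monocytes. The estimate status of these small RNA genes was OK, and the transcripts with these symbols are short, from 122 (*Mir1b*) to 178 bases (*Snora81*). The deposited positions are longer than these transcripts, such as chr18:10725624-10812217 for *Mir1b* and chr16:23107467-23127730 for *Snora81*. What these rows measured is therefore uncertain. *Mir1b*, *Snord22*, *Snora64* and *Snora21* were listed at 0 in both Ly6Chi libraries as well. A failed estimate gave the 0 of *Actb*, cytoplasmic beta-actin, listed at 27260 in control and 0 in deficient Ly6Clo monocytes. Its status was other than OK, and it is counted here among the 487 lower genes. No fold is given for these 7 genes.

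The other 9 of the highest genes each had values above 0 in both libraries. The gene listed as *Amd2*, a copy of the S-adenosylmethionine decarboxylase gene of polyamine synthesis, went from 4.82 to 38.5, a log2 ratio of 2.76. Its deposited position is chr10:40287457-40302188, while the RefSeq window upstream of *Amd2* is chr10:35711892-35712141. Which copy was measured is therefore uncertain. *Ear1*, an eosinophil-associated ribonuclease, went from 4.15 to 27.8 (2.48), while the markers of eosinophils were near 0 in both libraries. Both belong to families of near-identical copies, so that their reads could be divided between copies, and both were also higher in deficient Ly6Chi monocytes, at 3.69 and 3.21. *Twf1*, the actin monomer-binding protein twinfilin, had the highest level of the 12, going from 175.5 to 919.9 (2.38).

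*Arf6*, a small GTPase of the plasma membrane and endosomes, went from 12 to 67.1 (2.39), and unlike most higher genes it is GC-rich, at 60.0%. *Myef2*, an RNA-binding protein, went from 27.5 to 153.8 (2.44), and *Skil*, the SnoN repressor of SMAD signaling, from 48.6 to 239.3 (2.28). *Ltc4s*, which makes leukotriene C4, went from 3.40 to 20.6 (2.30). *Itm2a*, an integral membrane protein, went from 9.27 to 49.2 (2.29), and *5430435G22Rik* from 2.68 to 17.6 (2.33).

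Of the lowest genes, *H2-L*, a class I MHC heavy chain, went from 243.1 to 10.9, a log2 ratio of -4.36. Class I genes are near-identical, and how the counting divided their reads is uncertain. *Hba-a2*, alpha-globin, went from 1171 to 89.4 (-3.70), whereas *Hbb-bs* was higher. *Havcr2*, which encodes the inhibitory receptor TIM-3, went from 57.4 to 5.19 (-3.24), and *Ace*, angiotensin-converting enzyme and a gene of Ly6Clo monocytes, from 108.7 to 17.8 (-2.55).

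*Pik3ap1*, the adaptor that links B cell and Toll-like receptors to phosphoinositide 3-kinase, went from 71.3 to 10.99 (-2.59). *Hist1h1c*, a linker histone, went from 26.1 to 3.57 (-2.57), *Fam109b* from 20.99 to 2.81 (-2.53) and *Slc35c2*, a Golgi sugar transporter-like protein, from 57.8 to 9.18 (-2.53). In Ly6Chi monocytes *Havcr2*, *Ace*, *Pik3ap1*, *Hist1h1c* and *Fam109b* had ratios between -0.49 and 0.22, and that of *Slc35c2* was -1.35.

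**Figure D3:**
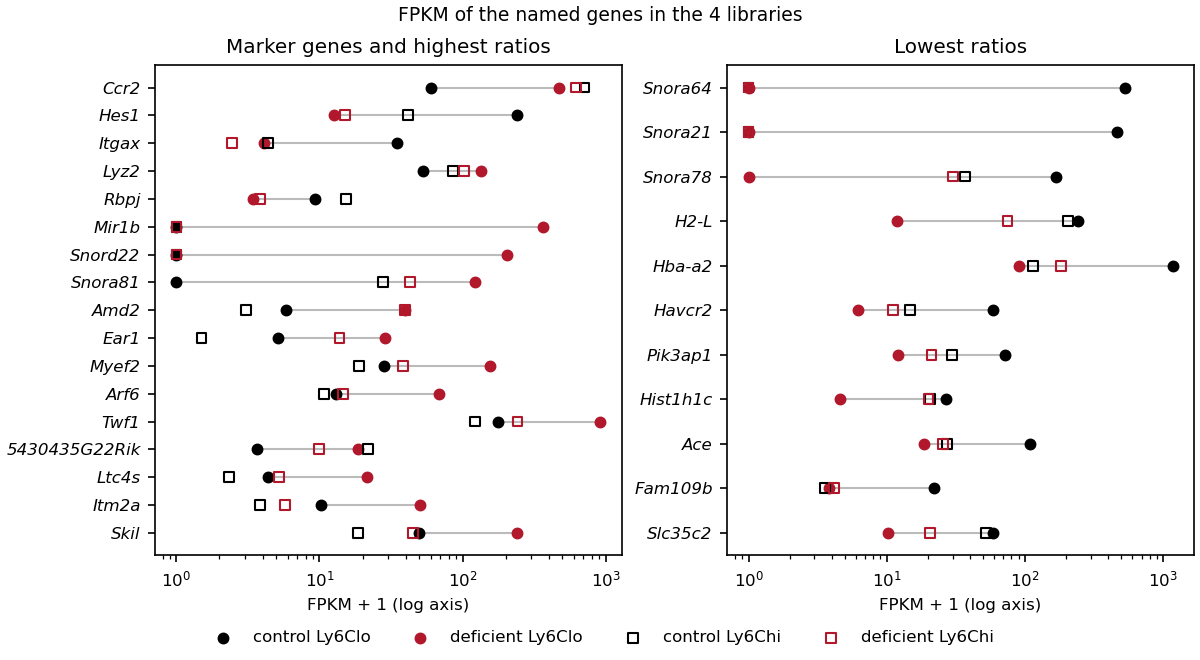
FPKM + 1 on a log axis of the marker genes and of the 12 genes with the highest (left) and 11 of the 12 with the lowest ratios (right, *Actb* not drawn) beyond the heat map, in control (black) and RBP-J-deficient (red) Ly6Clo (filled circles) and Ly6Chi (open squares) monocytes. Grey lines join the 2 Ly6Clo libraries; for *Havcr2* these lie at 57.4 and 5.19 FPKM, and a gene at 1 on this axis is listed at 0.

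To place the remaining genes, 45 lists of genes by function were used. They held 260 of the 1084 genes past 2-fold, and 824 were in none. Counts below are of list members with a mean FPKM of 10 or more, to be read against 12.5% higher and 10.2% lower over all genes.

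**Figure D4:**
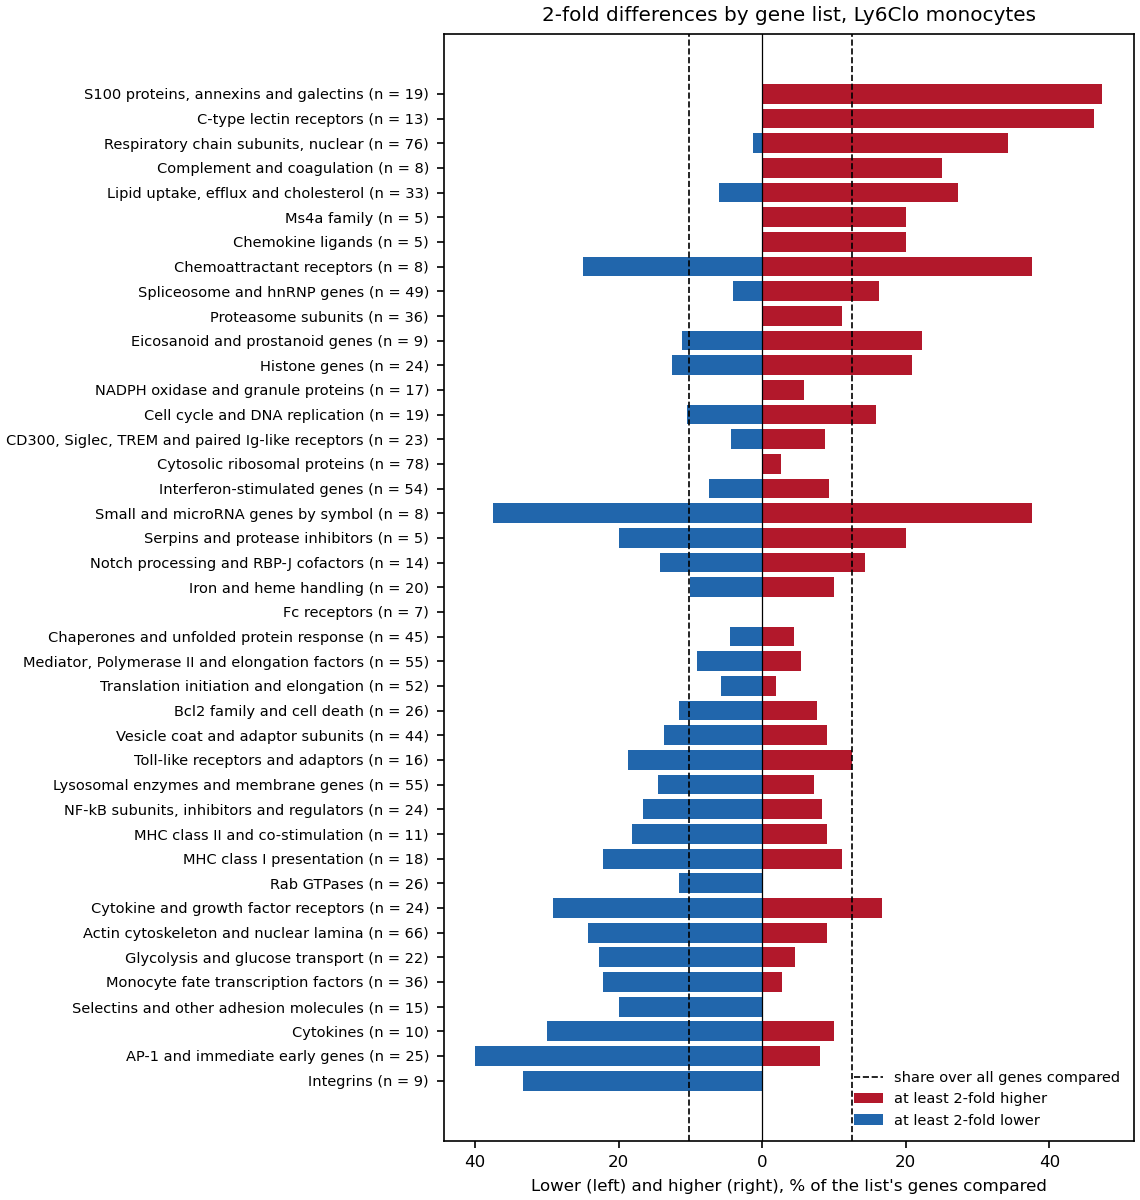
Share (%) of each list's compared genes that were at least 2-fold lower (blue, left) and higher (red, right) in RBP-J-deficient Ly6Clo monocytes, for lists with 5 or more such genes (n in brackets), with dashed lines at the shares over all genes, 10.2% and 12.5%. S100 proteins, annexins and galectins, C-type lectin receptors and respiratory chain subunits extend farthest to the right beside lists of few genes, and immediate early genes farthest to the left.

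Subunits of the mitochondrial respiratory chain encoded in the nucleus were higher as a group. Of 76 compared, 26 were at least 2-fold higher (34.2%) and 1 lower, 66 were above 0, and the median ratio was 0.80. *Cox7c*, a small subunit of cytochrome c oxidase, went from 454.7 to 1604 (1.82). Among complex I subunits, *Ndufs5* went from 51.8 to 164.9 (1.65), *Ndufa12* from 221.1 to 672.9 (1.60), *Ndufc1* from 269.6 to 739.7 (1.45) and *Ndufa8* from 269.9 to 727.3 (1.43). The exception was *Atp5d*, the delta subunit of ATP synthase, which went from 105.0 to 37.6 (-1.46).

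By complex, 16 of 36 subunits of complex I were at least 2-fold higher, 1 of 4 of complex II, 1 of 9 of complex III, 3 of 11 of complex IV and 4 of 15 of complex V, and so was cytochrome c itself. The median was 0.95 in complex I, 0.40 in complex II, 0.51 in complex III, 0.72 in complex IV and 0.66 in complex V. In TPM 7 of the 76 were higher, and after GC subtraction 18 were. These are short transcripts, with a median length of 1135 bases, and the cytosolic ribosomal proteins, at 1076.5 bases, had 2 of 78 genes higher, none lower and a median of 0.36. In Ly6Chi monocytes no respiratory chain subunit was past 2-fold and the median was 0.28.

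**Figure D5:**
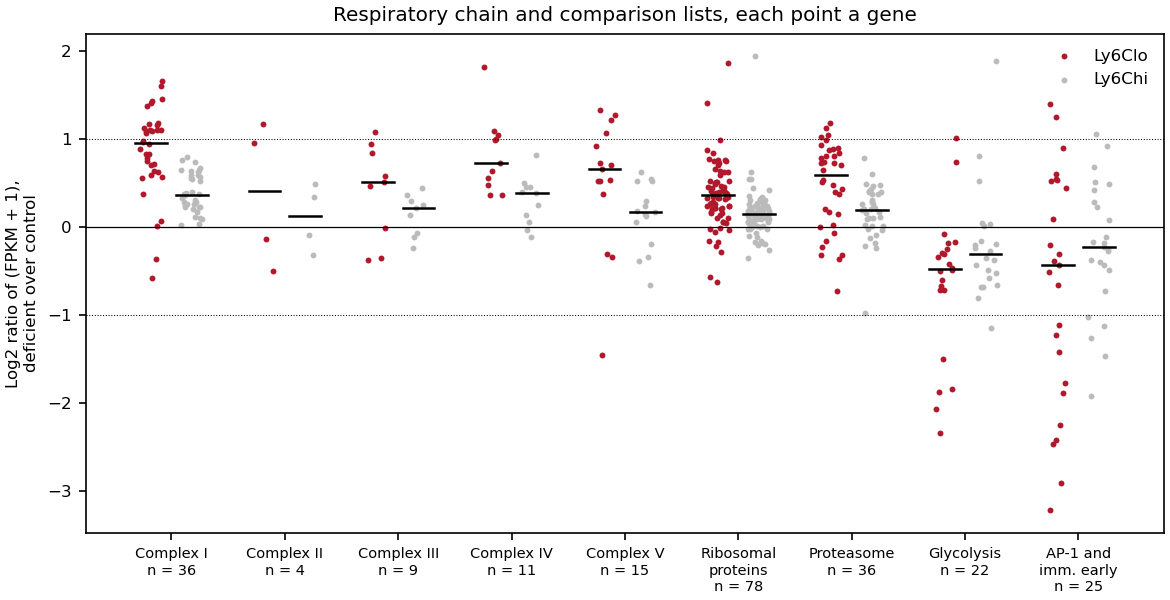
Log2 ratio between the genotypes of each gene (points) in Ly6Clo (red) and Ly6Chi (grey) monocytes, for respiratory chain complexes and 4 comparison lists, with medians as black lines and the 2-fold thresholds dotted. The Ly6Clo median of complex I is 0.95 and that of the ribosomal proteins 0.36, while most glycolysis genes lie below 0; *Cycs* is not drawn.

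Glycolysis went the other way. Of 22 genes for glycolytic enzymes and glucose or lactate transporters, 20 were below 0, 5 were at least 2-fold lower and 1 was higher, with a median of -0.48. *Slc16a3*, the lactate exporter MCT4, went from 28.6 to 4.86 (-2.34). *Pfkl*, liver-type phosphofructokinase, went from 20.7 to 4.17 (-2.07), *Pfkfb4*, which sets the level of its activator, from 29.6 to 7.32 (-1.88), and *Pkm*, pyruvate kinase, from 452.9 to 159.5 (-1.50). *Slc2a6*, a lysosomal member of the glucose transporter family, went from 74.9 to 20.1 (-1.85). The higher gene was *Hk2*, hexokinase 2, at 12.7 and 26.4 (1.002). The 5 lower genes were also lower by 2-fold after GC subtraction. The median GC of this list was 53.2%, and its median in Ly6Chi monocytes was -0.31.

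S100 proteins, annexins and galectins, calcium-, phospholipid- and sugar-binding proteins of the cytosol and cell surface, had 9 of 19 genes at least 2-fold higher (47.4%) and none lower. *Anxa3* went from 8.46 to 43.9 (2.24), *S100a1* from 49.2 to 226.6 (2.18), *Lgals1*, galectin-1, from 97.0 to 307.6 (1.65), *S100a6* from 267.0 to 787.8 (1.56) and *S100a13* from 72.1 to 209.5 (1.53). The FPKM of these 5 genes in control Ly6Chi monocytes was 69.3, 183.4, 319.0, 978.5 and 106.4, in the same order. After GC subtraction 7 were higher and 1 lower, and in TPM 5 were higher and 2 lower. None was past 2-fold in Ly6Chi monocytes.

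C-type lectin receptors, which bind sugars of fungi, bacteria and dead cells, had 6 of 13 genes higher (46.2%) and none lower, 4 of them beyond the heat map. *Clec4e*, which encodes Mincle, went from 92.9 to 312.7 (1.74), beside its partner *Clec4d* of the heat map at 9.55 and 67.7 (2.70). *Cd302* went from 149.9 to 484.8 (1.69) and *Clec7a*, the beta-glucan receptor Dectin-1, from 58.1 to 123.3 (1.07). The list had a low median GC of 41.4%, and 4 genes were higher after GC subtraction.

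Receptors for chemoattractants were divided. Of 8 genes, 3 were higher: the formyl peptide receptors *Fpr1*, a heat map gene, and *Fpr2*, which went from 27.8 to 122.0 (2.096), and the second C5a receptor *C5ar2*, at 5.25 and 14.9 (1.35). Both lower genes, *Gpr35*, at 30.3 and 11.8 (-1.30), and *S1pr5*, the sphingosine 1-phosphate receptor of Ly6Clo monocytes and NK cells, at 115.1 and 54.7 (-1.06), lay beyond it. Of the chemokine receptors compared only *Ccr2*, 1 of 3, was past 2-fold, and of 5 chemokine ligands only *Ccl6*, at 845.8 and 1729 (1.03). After GC subtraction 3 chemoattractant receptors were higher and 1 lower. *Fpr1* was higher in Ly6Chi monocytes too, at 3.14.

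Genes of lipid uptake, efflux and cholesterol had 9 of 33 higher (27.3%) and 2 lower. Beyond *Lpl* and *Gdpd3* of the heat map, *Abcg1*, the sterol exporter, went from 226.5 to 743.5 (1.71) and *Acsl4*, which activates arachidonate, from 23.3 to 92.2 (1.94), with a failed estimate recorded for that gene. *Scarb1*, the HDL receptor, went from 40.2 to 9.09 (-2.03), and *Nr1h2*, the sterol-sensing receptor LXR-beta, from 62.9 to 16.04 (-1.91). After GC subtraction 6 were higher and 2 lower. This list was the one with the most higher genes in Ly6Chi monocytes apart from the Ly6Clo markers, 7 of 33.

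The septins, GTP-binding filament proteins, were looked up after their values were seen, because the deposited table writes their symbols as dates, and positions gave their names. Of 13 found, 6 were compared. *Sept2* had 424.0 in control and 1778 in deficient Ly6Clo monocytes (2.07), *Sept10* 13.98 and 59.96 (2.02), and *Sept11* 12.8 and 49.5 (1.87). *Sept9* was at the threshold on the other side, at 104.7 and 51.8 (-1.002), and *Sept6* and *Sept7* were within 2-fold.

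Other lists with more higher than lower genes differed less from the whole. Spliceosome and hnRNP genes had 8 of 49 higher (16.3%) and 2 lower, led by the splicing factor *Srsf2*, at 180.7 and 608.5 (1.75), with 4 higher after GC subtraction. The proteasome had 4 of 36 higher (11.1%) and none lower, with a median of 0.58, led by *Psma2* at 361.0 and 815.3 (1.17), with 2 higher after GC subtraction. Complement and coagulation had 2 of 8 higher, *Thbd*, thrombomodulin, at 140.1 and 470.2 (1.74), and *C3* at 18.5 and 61.7 (1.68).

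Among lists of more than 10 compared genes, immediate early genes had the highest share of lower genes. Of 25 genes of AP-1, other factors induced within minutes of stimulation, and their feedback inhibitors, 10 were at least 2-fold lower and 2 higher. Beyond *Nr4a1* and *Junb* of the heat map, *Dusp6*, a phosphatase that switches off ERK, went from 222.3 to 40.8 (-2.42), its nuclear relative *Dusp5* from 41.8 to 6.75 (-2.47) and *Socs3*, an inhibitor of cytokine signaling, from 33.9 to 6.35 (-2.25). On the higher side were the AP-1 member *Fosl2*, at 9.44 and 26.5 (1.40), and *Zfp36l2*, which destabilizes AU-rich mRNA, at 57.0 and 136.3 (1.24). Counts were 9 lower and 2 higher after GC subtraction. In Ly6Chi monocytes 5 were lower and 1 higher, with *Junb* at -1.93 and *Nr4a1* at -0.23. *Nr4a1* in the Ly6Clo libraries had 618.2 and 65.6 (-3.22). By flow cytometry and qPCR, however, the paper reports similar Nr4a1 in Ly6Clo monocytes of both genotypes.

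Transcription factors of monocyte fate had 8 of 36 lower (22.2%) and 1 higher. *Spi1*, which encodes the myeloid master regulator PU.1, went from 902.7 to 211.1 (-2.09). *Bhlhe40* went from 75.7 to 14.97 (-2.26), *Stat3* from 131.7 to 39.6 (-1.71) and *Tfeb*, a regulator of lysosomal genes, from 15.9 to 4.37 (-1.65). The higher gene was the ETS factor *Fli1*, at 42.3 and 159.2 (1.89). *Spi1* was lower in Ly6Chi monocytes as well, at 851.0 and 441.6 (-0.94), whereas *Bhlhe40* stood at 0.50 there. The list had 9 lower and 3 higher genes after GC subtraction.

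Cytokine and growth factor receptors had 7 of 24 lower (29.2%) and 4 higher. *Csf1r*, the receptor that Ly6Clo monocytes need for survival, went from 406.7 to 157.8 (-1.36), *Csf2ra* from 299.1 to 116.6 (-1.35) and *Csf3r* from 30.4 to 6.50 (-2.07). *Tgfbr1* went from 56.6 to 10.8 (-2.29) and *Tnfrsf1a*, the main TNF receptor, from 102.5 to 39.5 (-1.35). The 4 higher genes were *Ifnar1*, a chain of the type I interferon receptor, at 27.3 and 96.1 (1.78), *Fas* at 25.8 and 60.1 (1.19), the common gamma chain *Il2rg* at 910.4 and 2079 (1.19) and *Cd40* at 12.8 and 29.3 (1.14). After GC subtraction 7 were lower and 1 higher, and none was past 2-fold in Ly6Chi monocytes.

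Among 10 cytokine genes, 3 were lower and 1 higher. *Il27* went from 35.9 to 5.96 (-2.41), *Il16* from 47.7 to 20.5 (-1.18) and *Ltb*, lymphotoxin beta, from 142.9 to 65.3 (-1.12), while *Il18* went from 18.5 to 55.6 (1.54). NF-kB subunits and regulators had 4 of 24 lower and 2 higher. *Nfkb1* went from 103.2 to 31.7 (-1.67) and *Rela* from 29.3 to 10.7 (-1.37), whereas the inhibitors *Tnfaip3*, which encodes A20, at 6.15 and 16.7 (1.31), and *Tnip3*, of the heat map, were the higher ones. Toll-like receptors and adaptors had 3 of 16 lower and 2 higher: *Unc93b1*, which carries endosomal receptors to their compartment, went from 181.9 to 45.9 (-1.96), the adaptor *Myd88* from 126.8 to 50.8 (-1.30) and *Tlr7* from 180.7 to 85.2 (-1.08), against *Irak4* at 39.7 and 108.7 (1.43) and *Ly86* at 380.1 and 804.5 (1.08). After GC subtraction the counts were 2 lower and 1 higher for cytokines, 3 and 2 for NF-kB genes and 4 and 1 for Toll-like receptors and adaptors.

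Integrins and adhesion molecules had lower genes and no higher ones. Of 9 integrin subunits 8 were below 0 and 3 at least 2-fold lower: besides *Itgax*, these were *Itgal*, the LFA-1 alpha chain with which Ly6Clo monocytes crawl along endothelium, at 209.9 and 74.2 (-1.49), and *Itgb7* at 102.5 and 41.1 (-1.30). Of 15 other adhesion genes 3 were lower, the tetraspanins *Cd82*, at 155.7 and 39.2 (-1.96), and *Cd9*, at 796.7 and 367.7 (-1.11), and the P-selectin ligand *Selplg*, at 356.6 and 139.9 (-1.34). Each of these 2 lists had 3 lower genes after GC subtraction, and neither had a gene past 2-fold in Ly6Chi monocytes.

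The actin cytoskeleton and nuclear lamina list had 16 of 66 genes lower (24.2%), *Actb* with its failed estimate among them, and 6 higher. *Myo1g*, a hematopoietic myosin, went from 232.1 to 63.8 (-1.85), *Actn4*, alpha-actinin-4, from 30.8 to 8.58 (-1.73), *Parvg* from 16.8 to 3.99 (-1.84) and *Cotl1*, coactosin-like protein, from 142.6 to 45.5 (-1.63). Higher genes included *Capg*, a filament-capping protein of the heat map, at 25.6 and 409.9 (3.95), *Actr2*, a subunit of the Arp2/3 complex, at 583.8 and 2450 (2.07), *Vim*, vimentin, at 112.8 and 446.3 (1.98), and *Rhoa* at 509.7 and 1066 (1.06). After GC subtraction 12 were lower and 4 higher.

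Lysosomal genes had 8 of 55 lower (14.5%) and 4 higher, with a median of 0.05. *Ctsb*, cathepsin B, went from 1046 to 352.9 (-1.57), *Acp5*, tartrate-resistant acid phosphatase, from 145.5 to 43.5 (-1.72) and *Laptm5* from 849.9 to 306.1 (-1.47), whereas *Ctsc*, cathepsin C, went from 383.5 to 1063 (1.47). After GC subtraction 12 were lower and 3 higher. Of vesicle coat genes 6 of 44 were lower and 4 higher, and of Rab GTPases 3 of 26 were lower and none higher, among them *Rab27a*, a regulator of secretory granules, at 59.1 and 16.4 (-1.79).

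Both antigen presentation lists had more lower than higher genes. MHC class II and co-stimulation had 2 of 11 lower (18.2%) and 1 higher, *Cd40*. The lower genes were *H2-Aa*, at 260.3 and 90.3 (-1.52), and *H2-Eb1*, at 113.4 and 35.6 (-1.65). Class I presentation had 4 of 18 lower (22.2%) and 2 higher, *Canx* and *Nlrc5*. Among the lower ones were the peptide transporters *Tap1*, at 68.3 and 32.1 (-1.06), and *Tap2*, at 63.0 and 18.7 (-1.70). The other lower genes were *H2-L* and *H2-Q1*, whose reads could be divided among near-identical copies. After GC subtraction 2 class II genes were lower and none higher, and 3 class I genes lower and 1 higher.

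Several lists lay near or under the share over all genes. Interferon-stimulated genes had 5 of 54 higher and 4 lower, with *Isg15* at 9.26 and 24.3 (1.30) and *Irf7* at 69.4 and 23.5 (-1.52), and 2 higher and 4 lower after GC subtraction. None of 7 Fc receptor genes was past 2-fold either way, and their ratios ran from -0.46 to 0.84. Chaperones had 2 of 45 higher and 2 lower, translation factors 1 of 52 and 3, Mediator and Polymerase II genes 3 of 55 and 5, and genes of the Bcl2 family and cell death 2 of 26 and 3, the lower ones including *Bcl2* itself, at 31.7 and 14.8 (-1.05). Cell cycle and DNA replication genes had 3 of 19 higher and 2 lower, with *Ccnd3*, cyclin D3, at 142.2 and 27.9 (-2.31) and the inhibitor *Cdkn1a* at 44.9 and 111.4 (1.29). Iron and heme genes had 2 of 20 each way and NADPH oxidase and granule proteins 1 of 17 higher.

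Within the Notch pathway few genes reached a mean FPKM of 10. Of 9 receptor and ligand genes 2 did, and both were higher: the receptor *Notch2*, of the heat map, at 125.7 and 732.3 (2.53), and the ligand *Jag1* at 5.64 and 20.7 (1.70). Of 39 processing and cofactor genes 14 did, with *Adam10*, the protease of the first cut, higher at 59.1 and 186.5 (1.64) and *Ncstn*, a gamma-secretase subunit, lower at 86.4 and 30.9 (-1.46). *Cir1*, an RBP-J corepressor, was higher at 23.2 and 53.1 (1.16). Of 17 genes listed as Notch targets 2 did, *Hes1* and the Hes family gene *Hes6*, the latter at 45.5 and 15.8 (-1.47), both lower. Whether *Hes6* depends on Notch in these cells was not tested. In Ly6Chi monocytes *Notch2* was higher (1.18) and *Hes1* lower, at 40.5 and 14.1 (-1.46), while *Hes6* had 53.2 and 52.9.

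The same 4778 genes were set beside the Ly6Chi libraries, which are different libraries from the Ly6Clo ones. In Ly6Chi monocytes 120 of the genes were at least 2-fold higher (2.51%) and 95 lower (1.99%) with RBP-J deleted, and the median ratio was 0.10. Of the 597 genes higher in Ly6Clo monocytes, 541 were also above 0 in Ly6Chi monocytes, 49 of them by at least 2-fold, and 2 were at least 2-fold lower. Of the 487 lower genes, 427 were also below 0, 68 by at least 2-fold, and 5 were at least 2-fold higher. The median Ly6Chi ratio was 0.53 for the higher and -0.53 for the lower genes. Across 4777 genes the 2 ratios had a Spearman correlation of 0.63, a description across genes, which are not replicates and whose ratios shared the relation with GC content in both subsets.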

How the data were processed

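Paired-end RNA-seq libraries of sorted blood monocytes, 1 per genotype and subset, were sequenced on an Illumina HiSeq instrument. The deposited table holds FPKM values that the authors made in the layout of Cuffdiff; the submitters' processing notes name CASAVA 1.8, TopHat2 2.1.0, Cufflinks 2.2.1 and mm10. The authors' fold changes, p-values and q-values in that table were not used. Read counts were not used here, so no depth, interval or count test is given.

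For each row the log2 ratio of (FPKM + 1) was computed for genes whose mean over the 2 Ly6Clo libraries was an FPKM of 10 or more. Calls are ratios of 2-fold or more. The genes named are the marker genes, the 12 highest and 12 lowest beyond the heat map, up to 5 per list in each direction, and those at the thresholds. The genes and lists were chosen with earlier results of these data known. Symbols changed to dates were read from their positions in GENCODE M21 (GRCm38). GC content and length are those of the longest GENCODE transcript, found for 98.9% of the genes. The trend of the ratio with GC content (lowess, fraction 0.3, 3 iterations) was subtracted as an alternative chosen after seeing the data. Promoters from RefSeq (GRCm38.p6) were matched to 80.7% of the genes by symbol or synonym. The log2 ratio and the subtraction of the GC trend were tested on simulated data, and the other steps were not. Alternatives covered the pseudocount, the FPKM filter, TPM, centring, the status code and the fold threshold. Python 3.11.15, pandas 2.3.3 and statsmodels 0.14.6 were used. A few genes that the rule names are not reported here.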

Additional observations from a re-analysis of the deposited data

Results flagged for a closer look

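Of the genes at least 2-fold different in Ly6Clo monocytes, 2 higher and 5 lower ones were at least 2-fold different in the opposite direction in Ly6Chi monocytes. *5430435G22Rik* had a log2 ratio of 2.33 in Ly6Clo and -1.13 in Ly6Chi monocytes. *Ltb* had -1.12 and 1.55. *Dusp16*, a phosphatase of MAP kinases, had -1.85 and 1.28. The other genes were *Npm3*, at 1.22 and -1.63, *Mccc2*, at -1.51 and 1.10, *Smagp*, at -1.49 and 1.10, and *Slc12a2*, at -1.18 and 1.14. *Slc12a2* and *Dusp16* are in the list of Ly6Clo marker genes. The list of Ly6Clo marker genes had a median of -0.36 in Ly6Clo and 1.08 in Ly6Chi monocytes. With 1 library per group, none of these differences between the subsets was tested.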

How the results depend on the processing

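The counts of 597 higher and 487 lower genes were recomputed under 12 alternatives, 1 of them, the GC trend, added after seeing the data. They moved by over 1.5 times in TPM (272 higher, 794 lower), without a filter on FPKM (919 and 1134), at 1.5-fold (1498 and 860) and at 3-fold (160 and 170). The higher count alone did so after centring on the median (358), and the lower count alone at a mean FPKM of 20 or more (300) and at 10 or more in each library (294). TPM moves nearly all ratios down together. Among list medians of at least 0.3 in size, those of cytosolic ribosomal proteins (-0.00324) and translation factors (-0.0239) changed sign with it, and the smaller medians above 0 did so too. With a pseudocount of 5, 23 named genes were no longer past 2-fold, in TPM 41 and after GC subtraction 40, of 221. No paired analysis was possible because each group holds 1 library. Depth is unknown and limits the low values most.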
